A study of Mus musculus with 12 samples.

Results

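The nuclear-encoded subunits of respiratory complexes II to V and cytochrome c were followed in liver and gonadal white adipose tissue (GWAT) of Cav1 knockout and wild-type mice. The set holds 40 genes, chosen by symbol with earlier results of these data known. They are 4 of complex II, 9 of complex III, cytochrome c itself, 11 of complex IV and 15 of complex V, the ATP synthase. All probes annotated to these symbols, with older and newer ATP synthase names accepted, were taken. That gave 59 of the 45281 probes on the array, for 36 of the 40 genes. Uqcrb, Cox7c, Cox8a and Atp5g1 had no probe under their symbol in the annotation used and were not analysed here.

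The groups were GWAT labelled knockout and GWAT labelled wild type, from male FVB mice of 8 weeks, and knockout and wild-type liver, from male FVB mice of 12 weeks, with 3 Illumina bead arrays in each. The knockout is of Cav1, whose product caveolin-1 coats caveolae, small invaginations of the cell surface. Mice were anaesthetised with ketamine and xylazine at 3 PM, in the light phase. The comparison within each tissue asks which transcripts differ with the Cav1 genotype. Whether the 3 arrays of a group stand for 3 mice is not stated in the labels, and p-values therefore reflect array-to-array spread that could be technical.

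Cav1 itself ran against the labels in GWAT. Its intensity was 14598, 15114 and 17476 on the arrays labelled knockout, against 112, 108 and 111 on those labelled wild type, a log2 difference of 7.87 (SE 0.08, limma adjusted p = 1.55e-12). In liver it was 110.2, 117 and 113 in knockout arrays, where it lay below background on 3 of 3, against 172, 167 and 210.4 in wild-type arrays, and was at least 2.89-fold lower in knockout livers (limma adjusted p = 0.0123), a bound against the lowest signal above background. The GWAT groups are therefore called by their labels throughout, and every GWAT direction below would turn if those labels were exchanged. Marker genes fitted the tissues: adiponectin (Adipoq) read 18044, 18302 and 18775 on GWAT arrays labelled knockout and 21187, 18775 and 21302 on those labelled wild type, and the hepatocyte gene Ttr read 37939.6, 38332 and 41462 in knockout and 39249, 37939.6 and 37146 in wild-type livers. Intensities had been quantile-normalized within each tissue, with a median of 69.2 in GWAT and 113 in liver, so levels are compared neither between tissues nor between probes. Probes above background made up 44.8% to 48.6% on GWAT arrays and 33.7% to 36.5% on liver arrays.

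These proteins carry electrons to oxygen and turn the resulting proton gradient into ATP in the inner mitochondrial membrane. Complex II, succinate dehydrogenase, passes electrons from succinate to ubiquinone and is also an enzyme of the tricarboxylic acid cycle. Complex III passes them from ubiquinol to cytochrome c, and complex IV, cytochrome c oxidase, from cytochrome c to oxygen. Complex V, the ATP synthase, lets protons back through a membrane rotor (Fo) that drives the catalytic head (F1). White adipocytes use this chain for lipid turnover with modest energy demand, brown adipocytes hold it at high density, and hepatocytes depend on it for gluconeogenesis and urea synthesis.

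In GWAT, 24 of the 34 subunit genes that could be tested were higher on the arrays labelled knockout and 0 were lower, at a limma adjusted p under 0.05 over all genes tested (n = 3 per group). Among all 11487 genes tested 12.8% were called higher and 12.3% lower, against 70.6% higher among the subunits. The 24 include Atp5a1, whose probes disagree in direction; without it, a tally made after these values were seen, 23 of 33 were higher (69.7%). The changes were small. The median log2 difference of the tested subunits was 0.27, against 0.01 for all genes. It was 0.27 to 0.29 under the other scalings tried, although centring on cytosolic ribosomal protein genes left 10 calls. The ratio of mean deposited intensities ran between 0.949 and 1.77 with a median of 1.20. For 27 subunits the 3 intensities labelled knockout all lay above the 3 labelled wild type, which held for 21.9% of all genes. The other 7 overlapped. Summed over the tested subunits, intensity was 228342, 235831 and 233649 on the arrays labelled knockout, against 192313, 192856 and 192946 on those labelled wild type. In these bulk samples, more cells of a kind and more RNA per cell cannot be told apart.

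**Figure D1:**
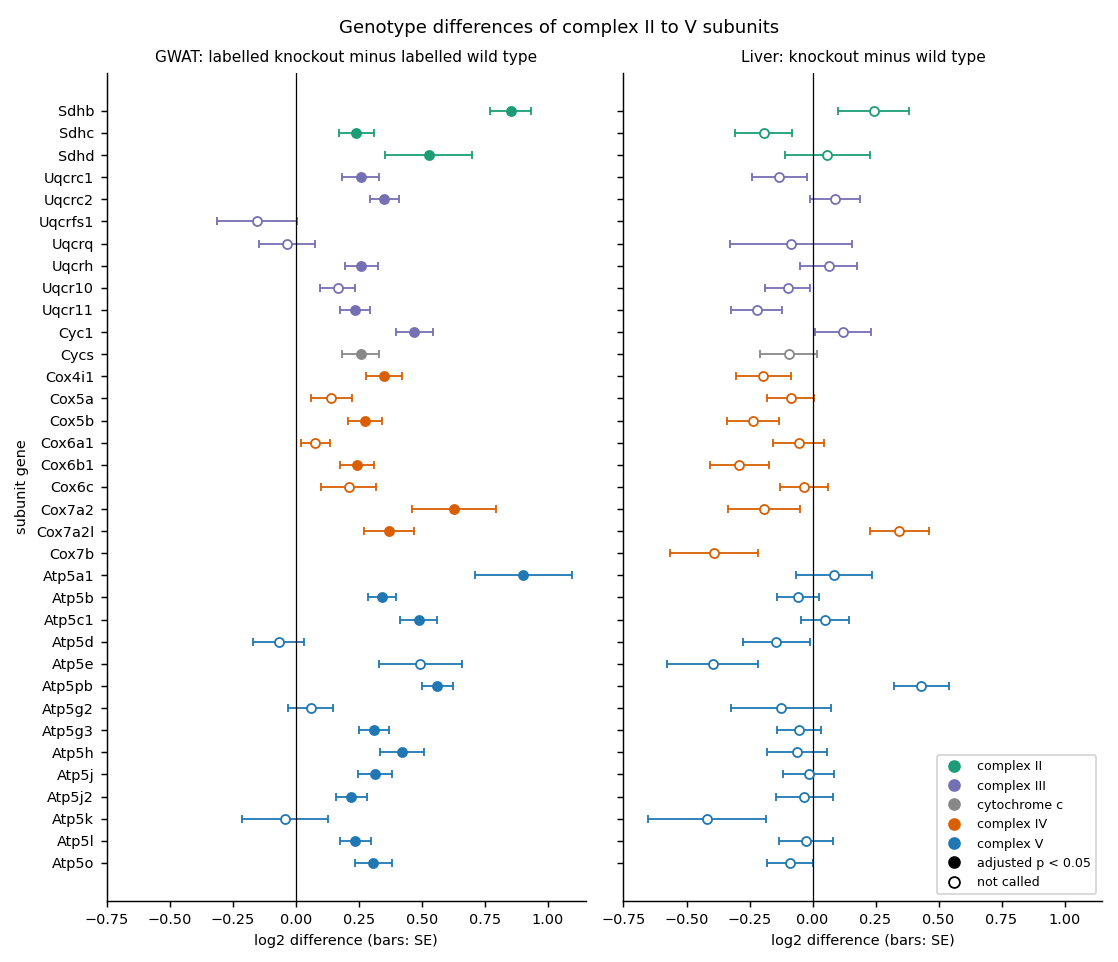
Log2 differences between genotypes for each tested subunit in GWAT (left; labelled knockout minus labelled wild type) and liver (right; knockout minus wild type), with bars for the standard error, colours for the complex and filled points for an adjusted p under 0.05. In GWAT 24 of 34 points are filled and all 24 lie right of 0; in liver no point is filled.

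Many subunits gave bright probes. Of the 17 tested subunits at or above the median subunit brightness, 14 were called higher in GWAT (82.4%), against 91 of the 459 other genes as bright as that (19.8%).

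**Figure D2:**
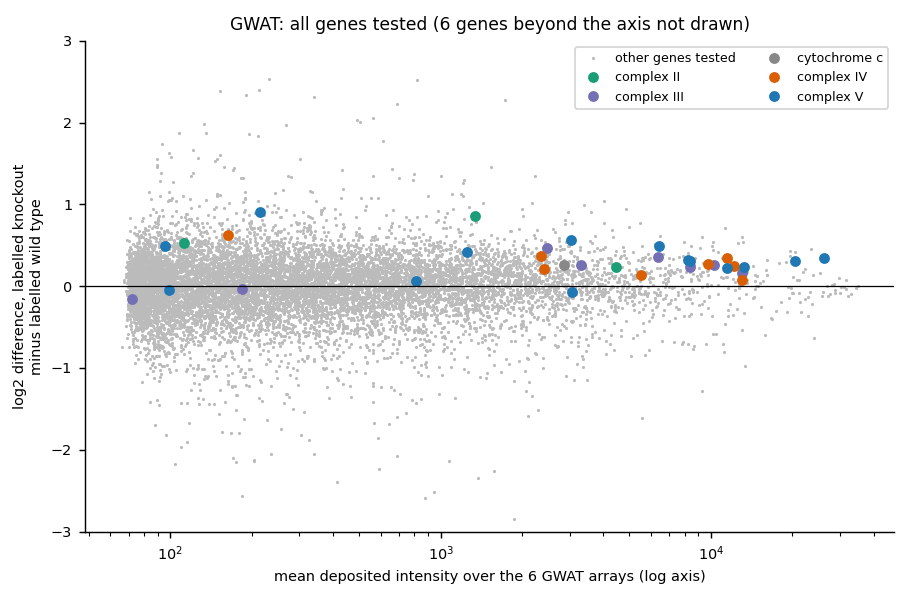
Log2 difference of every gene tested in GWAT (labelled knockout minus labelled wild type) against its mean deposited intensity on a log axis, with subunits coloured by complex and other genes in grey. Most subunits lie between 0 and 0.60 on the log2 scale at intensities where the grey cloud is narrow; 6 genes beyond 3 log2 units are not drawn.

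Because the subunits moved together in GWAT, the 250 bases upstream of their RefSeq start sites (GRCm38.p6) were searched on both strands for short motifs of factors known to act on respiratory genes. An entry was held for 35 start sites of 32 of the genes. The motif of NRF1, GCGCA and GCGC with any base between them, was present in 7 of the 35 stretches, against 3.74% of all 32851 promoters in the table. CCGGAAGT, bound by GABPA (also called NRF-2), was in 8.57% against 2.88%, and the estrogen-related receptor (ERR) motif TCAAGGTCA in 2.86% against 0.387%. YY1's AAGATGGC stood in 2.86% against 1.56%, CCAAT in 51.4% against 33.8%, the SP1 motif GGGCGG in 25.7% against 32.7%, and TATAAA in 2.86% against 12.4%. A match is a description of the letters, not a site of binding.

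The 7 members with an NRF1 match are shown first, in lower case with the match in capitals and up to 20 bases on either side, 5′ to 3′ on the gene's own strand, which is the minus strand for all 7. They are the stretches of Atp5c1 at chr2:10080433-10080469, Atp5g2 at chr15:102671060-102671109, Atp5h at chr11:115420031-115420080, Atp5k at chr5:108434420-108434469, Cox6a1 at chr5:115349091-115349140, Sdha at chr13:74350309-74350358 and Sdhd at chr9:50603899-50603948. The Atp5c1 stretch is shorter because the match lies close to the start site.
Atp5c1: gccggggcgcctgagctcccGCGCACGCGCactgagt
Atp5g2: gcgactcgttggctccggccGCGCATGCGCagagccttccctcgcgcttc
Atp5h: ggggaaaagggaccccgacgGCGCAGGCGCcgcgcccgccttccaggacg
Atp5k: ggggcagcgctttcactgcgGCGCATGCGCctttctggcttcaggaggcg
Cox6a1: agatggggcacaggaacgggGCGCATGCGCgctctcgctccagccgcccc
Sdha: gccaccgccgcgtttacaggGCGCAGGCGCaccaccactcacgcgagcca
Sdhd: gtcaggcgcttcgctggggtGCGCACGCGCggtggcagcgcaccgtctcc

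The NRF1 motif stood upstream of called and uncalled subunits. Of the 6 with a match that were tested, Atp5c1, Atp5h and Sdhd were called higher and Atp5g2, Atp5k and Cox6a1 were not, while 16 of the 21 tested members whose entry lacked it were called. All 3 members with the GABPA motif (Atp5h, Uqcr11 and Uqcrh) were called, as were 16 of the 24 tested without it. Atp5g3, the single member with the ERR motif, was called, as were 18 of the 26 tested without it. The single members with the YY1 motif and with TATAAA were called too, as were 18 of the 26 tested without either motif in turn. Calls fell on 6 of 9 tested members with the SP1 motif and 13 of 18 without it. With CCAAT 10 of 13 were called, and without it 9 of 14. These counts carry no test.

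Whole upstream stretches are shown for 4 subunits called higher in GWAT: Sdhb and Atp5pb, whose rises had the lowest p-values among the members, Uqcrh with a GABPA match and Atp5g3 with the ERR match. Capitals mark every match to a motif named above: SP1 in Sdhb and Atp5pb, CCAAT in Sdhb, Uqcrh and Atp5g3, GABPA in Uqcrh and ERR in Atp5g3. No matches in the printed stretches overlap. They lie at chr4:140961021-140961270 on the plus strand for Sdhb, and on the minus strand at chr4:116075071-116075320 for Uqcrh, chr3:105959264-105959513 for Atp5pb and chr2:73911327-73911576 for Atp5g3.
Sdhb: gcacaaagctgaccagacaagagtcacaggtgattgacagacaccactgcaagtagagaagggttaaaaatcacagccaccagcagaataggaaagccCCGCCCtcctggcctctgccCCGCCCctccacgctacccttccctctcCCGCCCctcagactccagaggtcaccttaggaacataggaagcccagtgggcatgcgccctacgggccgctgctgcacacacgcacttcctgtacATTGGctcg
Uqcrh: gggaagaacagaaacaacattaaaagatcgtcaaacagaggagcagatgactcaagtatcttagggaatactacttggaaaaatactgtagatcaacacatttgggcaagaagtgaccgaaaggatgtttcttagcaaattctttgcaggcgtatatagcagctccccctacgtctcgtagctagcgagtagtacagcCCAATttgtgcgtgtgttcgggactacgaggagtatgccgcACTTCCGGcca
Atp5pb: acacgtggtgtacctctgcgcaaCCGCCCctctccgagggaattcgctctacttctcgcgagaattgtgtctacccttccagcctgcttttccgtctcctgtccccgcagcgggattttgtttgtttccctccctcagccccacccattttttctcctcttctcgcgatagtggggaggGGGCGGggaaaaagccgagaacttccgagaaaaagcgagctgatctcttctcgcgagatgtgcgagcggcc
Atp5g3: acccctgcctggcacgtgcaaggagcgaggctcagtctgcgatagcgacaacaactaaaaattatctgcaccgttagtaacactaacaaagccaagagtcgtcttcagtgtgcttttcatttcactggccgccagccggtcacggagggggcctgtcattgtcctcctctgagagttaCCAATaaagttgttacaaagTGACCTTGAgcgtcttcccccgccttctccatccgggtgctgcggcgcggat

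All 3 tested subunits of complex II were higher on the GWAT arrays labelled knockout, with a median log2 difference of 0.53. That median is the value of Sdhd, the middle one of the 3. Sdhb, the iron-sulfur subunit that hands electrons from the flavin to the quinone site, read 1648, 1618 and 1873 on the arrays labelled knockout, against 1016, 919 and 963 on those labelled wild type. The groups did not overlap, and the log2 difference was 0.85 (SE 0.08, limma adjusted p = 7.61e-05). A second bright probe of Sdhb gave 0.92 (SE 0.10, limma adjusted p = 1.36e-04 over all probes), while the remaining dim one gave 0.34 and was not called. Sdhc, a membrane anchor of the complex, read 5191, 4713 and 4574 on arrays labelled knockout and 3913, 4202 and 4161 on arrays labelled wild type. It rose by 0.24 (SE 0.07, limma adjusted p = 0.0301). Sdhd, the other membrane anchor, was dim at 109.6, 137 and 129 on arrays labelled knockout and 105, 90.8 and 103 on arrays labelled wild type, again with no overlap, and rose by 0.53 (SE 0.17, limma adjusted p = 0.0482). The calls of Sdhc and Sdhd were each lost when any one of 4 arrays was left out, while that of Sdhb was kept with each array left out in turn (log2 0.79 to 0.89). Sdha, the flavoprotein that oxidises succinate, could not be tested: its single probe was below background on all arrays of both tissues.

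Complex III gave 5 calls among 8 tested subunits and a median of 0.25. Cyc1, the cytochrome c1 subunit that passes electrons to cytochrome c, had the largest rise, with 2996, 2894 and 2707 on the arrays labelled knockout against 2117, 2169.6 and 1954 on those labelled wild type. That is a log2 difference of 0.47 (SE 0.07, limma adjusted p = 0.00121). Uqcrc2, a core subunit on the matrix side, read 7022, 7137 and 7207 on arrays labelled knockout and 5542, 5585 and 5654 on arrays labelled wild type, and rose by 0.35 (SE 0.06, limma adjusted p = 0.00169). Its partner Uqcrc1 rose by 0.26 (SE 0.07, limma adjusted p = 0.0270). Uqcrh, the acidic hinge protein at the cytochrome c1 site, read 10635, 11383 and 11424 on arrays labelled knockout and 8801, 9747 and 9403 on arrays labelled wild type, a rise of 0.26 (SE 0.06, limma adjusted p = 0.0151). Uqcr11, a small accessory subunit, rose by 0.24 (SE 0.06, limma adjusted p = 0.0165). The remaining members did not pass. Uqcr10, another small subunit, stood at 13256, 13936 and 14112 on arrays labelled knockout and 11239, 12524 and 13142 on arrays labelled wild type without overlap (log2 0.17 with SE 0.07, limma adjusted p = 0.114), and its second probe passed with 0.24 (limma adjusted p = 0.0212 over all probes). Uqcrq, the ubiquinone-binding protein QP-C, overlapped at log2 -0.04 (SE 0.11, limma adjusted p = 0.846). Uqcrfs1, the Rieske iron-sulfur protein, was close to background, at 67.4, 70.2 and 73.2 on arrays labelled knockout and 73.4, 70.9 and 77.2 on arrays labelled wild type, and differed by log2 -0.15 (SE 0.16, limma adjusted p = 0.515).

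Cytochrome c (Cycs), the mobile carrier between complexes III and IV that also triggers apoptosis when released, read 2894, 3242 and 3169 on arrays labelled knockout, against 2705, 2434 and 2667 on arrays labelled wild type. The groups did not overlap, and the rise was 0.26 (SE 0.07, limma adjusted p = 0.0275). A second, dim Cycs probe gave -0.10 and was not called, and with the probes averaged the difference was 0.08 (limma adjusted p = 0.535).

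In complex IV, 5 of 8 tested subunits were higher, with a median of 0.26. Cox4i1, the regulatory subunit where ATP binds, read 12409.7, 13225 and 12824 on the arrays labelled knockout, against 10772, 9252 and 10232 on those labelled wild type, with a rise of 0.35 (SE 0.07, limma adjusted p = 0.00522). It was the single subunit of this complex whose call was kept with each array left out. Cox5b, a zinc-binding subunit on the matrix side, read 10267, 11022 and 10782 on arrays labelled knockout and 8941, 9403 and 8216 on arrays labelled wild type, and rose by 0.27 (SE 0.07, limma adjusted p = 0.0150). A second probe of it rose by 0.42 (SE 0.08, limma adjusted p = 0.00361 over all probes). Cox6b1, which links the monomers of the enzyme, rose by 0.24 (SE 0.07, limma adjusted p = 0.0256), and its second bright probe gave 0.15 and was not called (limma adjusted p = 0.117 over all probes). Cox7a2, the isoform of subunit VIIa found in liver and most other tissues, was dim at 167, 175 and 231 on arrays labelled knockout and 145, 128 and 139 on arrays labelled wild type. Its rise was the largest of this complex, 0.63 (SE 0.17, limma adjusted p = 0.0206); it was 0.44 without the third array labelled knockout, and was then not called (limma adjusted p = 0.0806). Cox7a2l, a related protein that joins complexes III and IV in supercomplexes, rose by 0.37 (SE 0.10, limma adjusted p = 0.0208). Among the uncalled members, Cox5a, the partner of Cox4i1 in early assembly, read 5508, 5932 and 5932 on arrays labelled knockout and 5765, 5361 and 4684 on arrays labelled wild type, with overlap. Cox6a1, the non-muscle isoform of subunit VIa, differed by log2 0.08 (SE 0.06, limma adjusted p = 0.357), the smallest difference in the complex. Cox6c overlapped as well, with log2 0.21 (SE 0.11, limma adjusted p = 0.196). Cox7b, a small subunit needed for assembly, was above background on 0 of 3 GWAT arrays labelled knockout and 1 of 3 labelled wild type and was not tested there.

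The ATP synthase had 10 calls among 14 tested subunits and a median of 0.31; without Atp5a1, whose probes disagree, these were 9 of 13 and 0.31. In the catalytic head, Atp5b, the beta subunit that carries the active sites, read 29409, 29409 and 29128 on arrays labelled knockout, against 22562, 23014 and 23936 on arrays labelled wild type. The groups did not overlap, and the rise was 0.34 (SE 0.06, limma adjusted p = 0.00189). Atp5c1, the gamma subunit that turns inside the head, read 7895, 7347 and 7170.0 on arrays labelled knockout and 4874, 5691 and 5486 on arrays labelled wild type, and rose by 0.49 (SE 0.07, limma adjusted p = 0.00126). Atp5a1, the alpha subunit, cannot be given a direction: its brighter probe rose by 0.90 (SE 0.19, limma adjusted p = 0.00772), at 206, 271 and 329 on arrays labelled knockout and 181, 148 and 155 on arrays labelled wild type, but its other probe fell by 0.59 (SE 0.13, limma adjusted p = 0.00859 over all probes), at 130 ± 10.5 on arrays labelled knockout and 172 ± 5.47 on arrays labelled wild type (SD, n = 3 each). The mean of both probes differed by 0.16 without a call (limma adjusted p = 0.481). Of the small subunits of the central stalk, Atp5d (delta) overlapped at log2 -0.07 (SE 0.10, limma adjusted p = 0.665), and Atp5e (epsilon) read 101, 115 and 97.6 on arrays labelled knockout and 84.5, 92.6 and 82.0 on arrays labelled wild type without overlap but missed the threshold, with log2 0.49 (SE 0.17, limma adjusted p = 0.0518).

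The stalk and membrane parts of the ATP synthase gave mixed readings by part. Atp5pb, the b subunit of the outer stalk, read 3633, 3576 and 3633 on arrays labelled knockout and 2563, 2385 and 2447 on arrays labelled wild type. It rose by 0.56 (SE 0.06, limma adjusted p = 1.74e-04), and its second probe by 0.65 (SE 0.09, limma adjusted p = 4.08e-04 over all probes). The other members of that stalk rose too. Atp5h (subunit d) read 1345, 1397 and 1527 on arrays labelled knockout and 1158, 975 and 1092 on arrays labelled wild type, a difference of 0.42 (SE 0.09, limma adjusted p = 0.00656). Atp5j (F6) rose by 0.32 (SE 0.07, limma adjusted p = 0.00793), and Atp5o (OSCP, which joins stalk to head) by 0.31 (SE 0.07, limma adjusted p = 0.0128).
In the rotor ring, the 3 genes of subunit c encode one mature protein. Atp5g3 read 22279.6, 23014 and 22562 on arrays labelled knockout and 18925, 17476 and 18412 on arrays labelled wild type, and rose by 0.31 (SE 0.06, limma adjusted p = 0.00394). Atp5g2, in contrast, overlapped at 857, 828 and 783 on arrays labelled knockout and 878, 769 and 732 on arrays labelled wild type (log2 0.06 with SE 0.09, limma adjusted p = 0.672). Whether these members differ from each other was not tested. Among the accessory subunits of the membrane part, Atp5j2 (f) rose by 0.22 (SE 0.06, limma adjusted p = 0.0268) and Atp5l (g) by 0.24 (SE 0.06, limma adjusted p = 0.0191), while dim Atp5k (e) stood at log2 -0.04 (SE 0.17, limma adjusted p = 0.883).

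Of the 14 further probes that passed the filter in GWAT, for 11 of the genes, 12 had a positive difference, 5 were called higher and 1, of Atp5a1, was called lower. In the same fit, 1462 of the 11487 probes that stand for a gene were called higher (12.7%) and 1406 lower. The share among further probes of all genes is not given here. The further bright probes of Atp5j and Atp5l were not called, at 0.22 (limma adjusted p = 0.0548 over all probes) and 0.20 (limma adjusted p = 0.0700 over all probes), and that of Atp5o was called at 0.32 (limma adjusted p = 0.0499 over all probes).

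The rise in GWAT was seen on each array labelled knockout rather than on one. The median deviation of the subunits from their own mean over the 6 GWAT arrays was 0.08, 0.18 and 0.15 log2 units on the arrays labelled knockout, against -0.15, -0.10 and -0.16 on those labelled wild type. Each complex kept this order, with the nearest approach in complex IV, where the first array labelled knockout stood at 0.05 and the first labelled wild type at -0.03. The number of calls depended more on single arrays: it was 12 without the second array labelled knockout, and 15 without the third labelled knockout or the second labelled wild type, while the median over the subunits stayed between 0.25 and 0.30 with each array left out. Calls kept with every single array left out were those of Sdhb, Uqcrc2, Cyc1, Cox4i1, Atp5b, Atp5c1, Atp5pb, Atp5g3, Atp5h and Atp5j, and that of the brighter Atp5a1 probe.

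**Figure D3:**
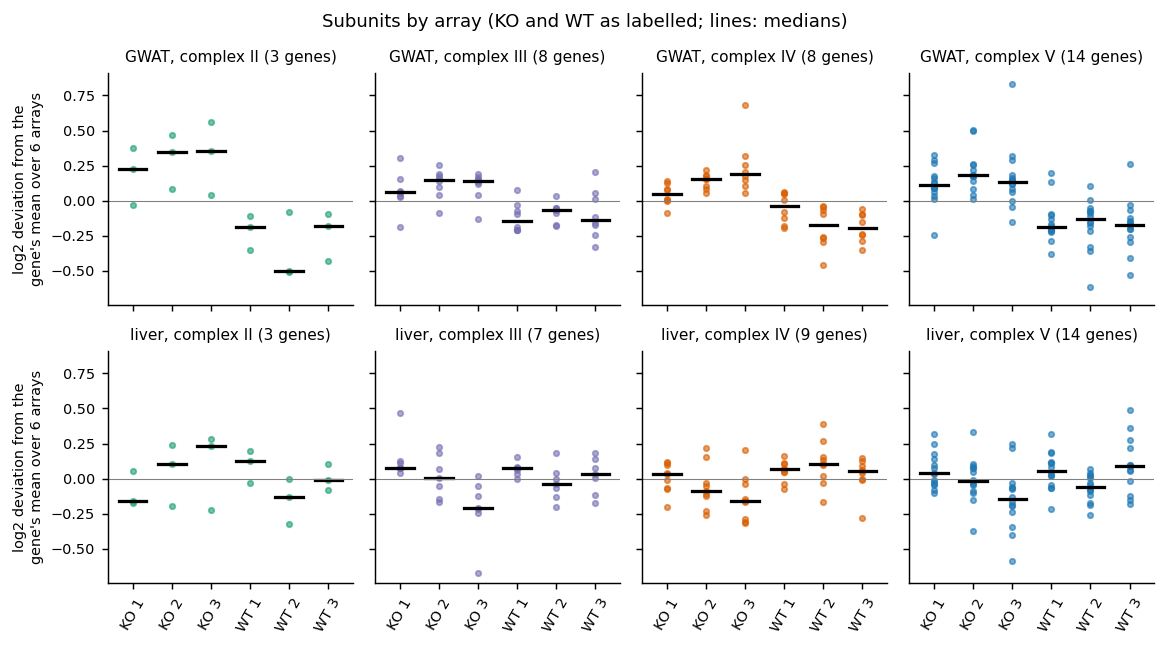
Log2 deviation of each tested subunit from its own mean over the 6 arrays of a tissue, by complex and array, with lines for medians; GWAT above, liver below, and KO arrays left of WT arrays as labelled. In GWAT the medians of all 3 KO arrays lie above those of all 3 WT arrays in each complex, while in liver they interleave in complexes II, III and V, and in complex IV all 3 KO arrays lie below all 3 WT arrays.

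In liver none of the 34 tested subunits was called. At this threshold 0.0999% of the 9008 genes tested were called in liver, and 9.35% had an unadjusted p under 0.05, as had 7 of the subunits. Of the differences 25 were below 0 and 9 above, with a median of -0.07, against -0.04 for all genes. Medians by complex were 0.06 for II, -0.09 for III, -0.19 for IV and -0.06 for V. Groups did not overlap for 2 subunits higher in the knockout (background 5.77%) and 4 lower (background 9.81%). Without the third knockout array the median of complex III turned to 0.10, and that of complex IV was -0.09.

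The lowest unadjusted p in liver belonged to Atp5pb, which read 2304, 2686 and 2496 in knockout livers, against 1873, 1819.6 and 1917 in wild-type livers. Its log2 difference was 0.43 (SE 0.11, limma unadjusted p = 0.00169, adjusted p = 0.294). Cox7a2l read 1698, 1836 and 1819.6 in knockout livers and 1520.3, 1427 and 1330.3 in wild-type livers, with log2 0.34 (SE 0.12, limma unadjusted p = 0.00991, adjusted p = 0.460). Both of these lay higher in every knockout array than in any wild-type array, on the side opposite to most subunits, and neither passed. Cox6b1 read 12189, 9447 and 9240.0 in knockout livers and 12189, 13531 and 11727 in wild-type livers, with 1 value shared between the groups (log2 -0.29 with SE 0.12, limma unadjusted p = 0.0258, adjusted p = 0.488). Cox5b lay lower without overlap, at 11602, 11442 and 9380.4 in knockout livers and 12556, 12988 and 12415 in wild-type livers (log2 -0.24 with SE 0.10, limma unadjusted p = 0.0367, adjusted p = 0.497). Cox7a2, Cox7b and Atp5e were the other members lower without overlap: Cox7b, which could be tested in liver alone, read 208, 206 and 212 in knockout livers and 229, 267 and 239 in wild-type livers (log2 -0.39 with SE 0.17, limma unadjusted p = 0.0431, adjusted p = 0.518). Uqcrfs1 joined Sdha below the filter in liver. With limma's array weights Atp5pb, Cox7a2l and Cox6b1 were called, in a fit that called 140 of the 9008 genes higher and 104 lower.

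The genotype difference by the labels was larger in GWAT than in liver for all 33 subunits that shared a probe in both tissues (32 with arrays centred on the median gene or with array weights, and 30 without the third knockout liver array). The same direction held for 4487 of the 8040 genes tested. For 11 subunits the interaction term passed (limma adjusted p under 0.05), against 4.42% of all genes higher by this test. The median GWAT minus liver difference was 0.36, against 0.05 for all genes. Among those 11 the largest were Atp5e at 0.89 (SE 0.25, limma adjusted p = 0.0345) and Cox7a2 at 0.82 (SE 0.22, limma adjusted p = 0.0314), where a positive difference in GWAT met a negative one in liver. Sdhb followed among them at 0.61 (SE 0.17, limma adjusted p = 0.0386), while the brighter Atp5a1 probe stood at 0.82 and did not pass (limma adjusted p = 0.0627). Cox4i1, Cox5b and Cox6b1 of complex IV differed by 0.51 to 0.54, Uqcr11 of complex III by 0.46, and Atp5b, Atp5c1, Atp5g3 and Atp5o of the ATP synthase by 0.36 to 0.44. Atp5pb and Cox7a2l, which leaned high in both tissues, had the small differences of 0.13 and 0.02. The tissues also differed in the age of the mice, so tissue and age cannot be told apart.

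**Figure D4:**
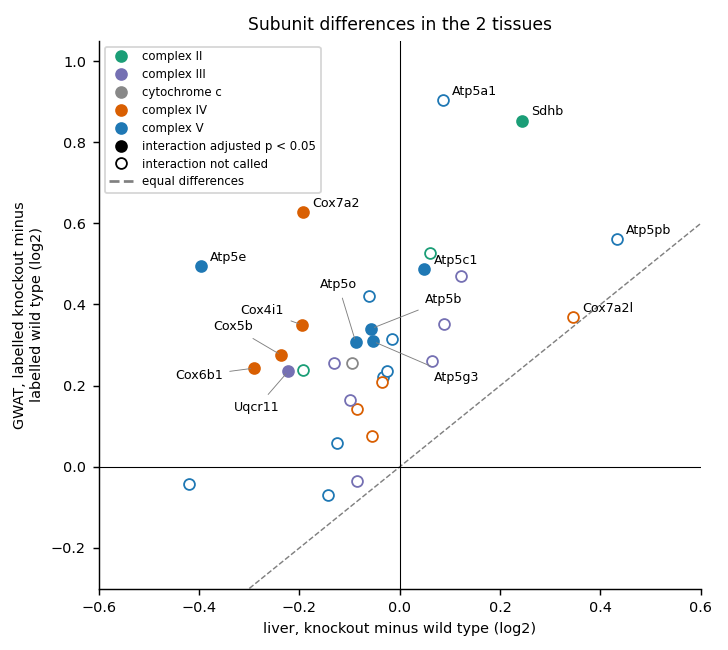
Log2 difference of each of 33 subunits in GWAT (vertical; labelled knockout minus labelled wild type) against that in liver (horizontal; knockout minus wild type), filled where the interaction passed. All 33 points lie above the dashed line of equal differences, and Atp5pb and Cox7a2l lie nearest to it on the right.

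This comparison turns on the GWAT labels that Cav1 contradicts. With the sign of the GWAT difference turned, 7 subunits were called, all lower in GWAT than in liver relative to genotype (background 3.54%): Sdhb at -1.10, Atp5pb at -0.99, the brighter probe of Atp5a1, which has no settled direction, also at -0.99, Cox7a2l at -0.71, Cyc1 at -0.59, Atp5c1 at -0.54 and Uqcrc2 at -0.44. Sdhb and Atp5c1 were called under both readings, in opposite directions.

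Tissue-restricted isoforms of the subunits were measured beside the members. Cox8b, the muscle and brown fat isoform of subunit VIII, read 1024, 1089.8 and 1205 on GWAT arrays labelled knockout, against 233, 342 and 248 on those labelled wild type, and rose by 2.23 (SE 0.15, limma adjusted p = 1.06e-05). This exceeded the rise of any member. Cox7a1, the isoform of subunit VIIa in the same tissues, overlapped at 355, 416 and 428 on arrays labelled knockout and 313, 400.2 and 364 on arrays labelled wild type (log2 0.18 with SE 0.12, limma adjusted p = 0.333). Cox6a2, named after its values were seen, read 64.8, 81.7 and 246 on arrays labelled knockout and 64.9, 72.8 and 63.6 on arrays labelled wild type, so that 1 array set its mean. Cox4i2 and Cox6b2 were not called, and Cox7b2, Cox8c and Cyct were not tested in GWAT.

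**Figure D5:**
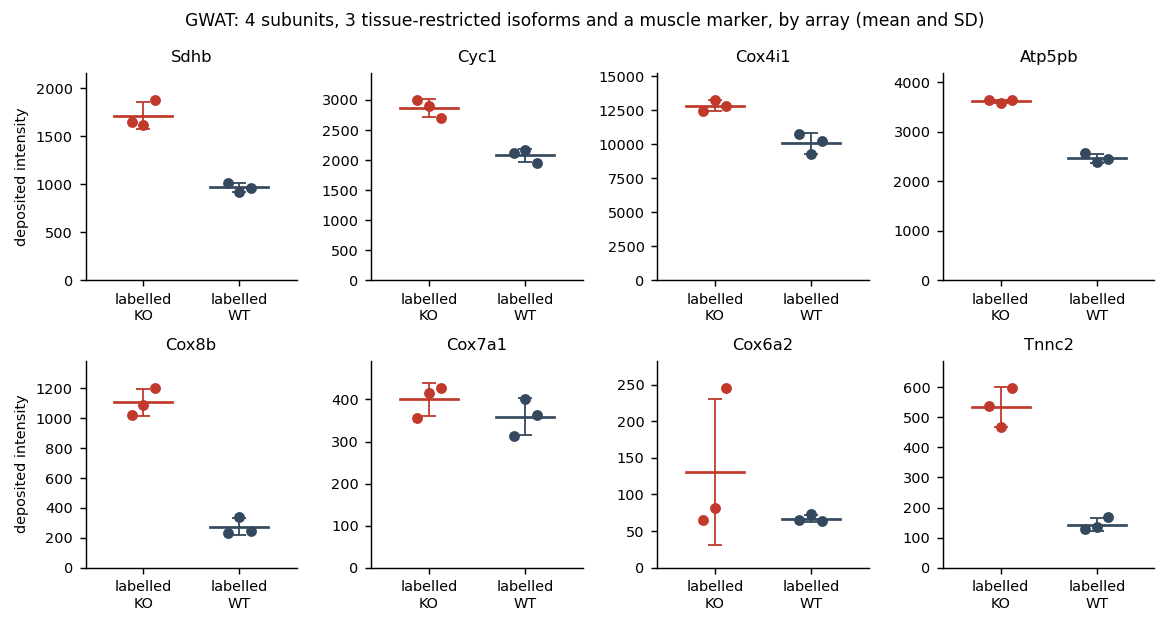
Deposited intensity in GWAT on each array, labelled KO left of labelled WT, with mean and SD (n = 3 each), for subunits Sdhb, Cyc1, Cox4i1 and Atp5pb, isoforms Cox8b, Cox7a1 and Cox6a2, and the muscle marker Tnnc2. The groups separate for the 4 subunits, Cox8b and Tnnc2, overlap for Cox7a1, and for Cox6a2 differ through 1 array of 246.

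Markers of some other cell types differed by the labels in GWAT, where 12.8% of all genes tested were called higher and 12.3% lower. Others had few calls: 0 of 3 tested lymphocyte markers, 1 of 6 endothelial ones, lower, and 1 of 4 hepatocyte ones, higher. Of the skeletal muscle list 7 of 12 genes could be tested and 3 were higher: the fast troponin C gene Tnnc2 by 2.31 (SE 0.16, limma adjusted p = 1.08e-05), the actin gene Acta1 by 1.35 (SE 0.15, limma adjusted p = 2.00e-04) and the myosin light chain gene Mylpf at least 2.23-fold (limma adjusted p = 0.0119). Mylpf was not above background on any array labelled wild type, so its fold is a bound set against the lowest signal above background, and it passed the filter through the arrays labelled knockout. Summed intensity of the tested muscle markers was 2259, 2473 and 3609.9 on arrays labelled knockout, against 1289, 1268 and 1226 on arrays labelled wild type. Ckm, Myh1, Myh4, Tnnt3 and Pvalb did not pass the background filter. Smooth muscle markers were higher for 4 of 5, with summed intensities of 12115 to 20303 on arrays labelled knockout and 8798 to 10690.2 on arrays labelled wild type; Actg2, an enteric actin, rose by 3.06 (SE 0.31, limma adjusted p = 9.52e-05). Of the brown fat list, 3 of 5 tested genes were higher, namely Cox8b, Cidea by 0.78 (SE 0.23, limma adjusted p = 0.0310) and Ppargc1a, with sums of 2015 to 2302 on arrays labelled knockout and 1060.2 to 1352 on arrays labelled wild type. The other tested genes, Cox7a1 (given above) and Slc27a2, were not called. Slc27a2 lay lower without overlap at 147, 166 and 150.0 on arrays labelled knockout and 241, 177 and 168 on arrays labelled wild type (log2 -0.43 with SE 0.17, limma adjusted p = 0.101). The defining marker Ucp1 was not above the filter, nor were Elovl3, Dio2 and Zic1, while Otop1 had no probe under its symbol. Macrophage markers were lower for 5 of 9, with sums of 12179 to 13608 on arrays labelled knockout and 19246 to 21733 on arrays labelled wild type. Fibroblast markers were lower for 3 of 6 and higher for 1. The adipocyte list gave 2 higher and 2 lower of 9, with sums of 72070 to 73996 on arrays labelled knockout and 73169 to 78137 on arrays labelled wild type. The part of these cell types in the subunit result was not tested. Without the third array labelled knockout, the highest in summed muscle markers, the median of the subunits was 0.28 and 15 of 33 were called. Leaving it out does not remove the muscle excess. Muscle sums of the first and second arrays labelled knockout still lay above those of all arrays labelled wild type. The calls were also 15, of 34, without the second array labelled wild type.

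Genes that build or regulate the complexes were described from lists. The counts below stand beside 12.8% of all GWAT genes tested called higher and 12.3% called lower. Among assembly factors, the complex III factors Uqcc1 by 0.57 (SE 0.10, limma adjusted p = 0.00292) and Uqcc2 by 0.45 (SE 0.08, limma adjusted p = 0.00253) were higher, 2 of the 4 tested. For complex II, 1 of 4 was called, Sdhaf2, which helps attach flavin to Sdha, by 0.35 (SE 0.10, limma adjusted p = 0.0310). For complex IV, 3 of 18 were higher, the copper chaperone Cox17 by 0.39 (SE 0.06, limma adjusted p = 0.00205), Cmc1 by 0.46 (SE 0.07, limma adjusted p = 0.00134) and Surf1 by 0.38 (SE 0.09, limma adjusted p = 0.0124). One was lower: Cox19, another small protein of the intermembrane space needed for the oxidase, with 1527, 1527 and 1494 on arrays labelled knockout, against 2193, 2213 and 2175 on arrays labelled wild type (log2 -0.55 with SE 0.06, limma adjusted p = 2.09e-04). The ATP synthase list was not limited to assembly factors, and 2 of its 4 tested genes were higher. These were the assembly factor Tmem70 by 0.41 (SE 0.09, limma adjusted p = 0.00821) and Atp5mpl, a small protein of the complex itself, by 0.34 (SE 0.07, limma adjusted p = 0.00495). Among 12 regulators tested, the coactivator Ppargc1a rose by 0.79 (SE 0.13, limma adjusted p = 0.00196), the mitochondrial ribosomal RNA methyltransferase Tfb1m by 0.59 (SE 0.17, limma adjusted p = 0.0270) and the receptor Esrra by 0.27 (SE 0.08, limma adjusted p = 0.0372), while the coactivator Pprc1 was lower (log2 -0.40 with SE 0.09, limma adjusted p = 0.0124). Nrf1, Gabpa and Tfam were not called. Of the complex I subunits, the entry point of the same chain, 22 of 34 were higher and none lower, with a median of 0.34. In liver none of these lists had a call.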

How the data were processed

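RNA was measured on 12 Illumina bead arrays. The values used were linear probe intensities deposited by the authors. Sorted values differed by at most 1.22% in GWAT and 0.460% in liver between arrays, so they were taken as quantile-normalized within each tissue. The lowest were 40.6 and 84.0, so they were taken as not background-subtracted, which the values alone cannot settle. What software processed them is not given in the sources used. Another 48 columns, in 2 tables, carried chip positions as names; none was assigned to a sample or used.

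Of 45281 probes, 34885 had 1 gene symbol in the platform annotation, 18 several and 10378 none, and 34807 were matched by Entrez identifier to RefSeq (GRCm38.p6). Members and other lists were chosen with earlier results of these data known. Probes of chemosensory receptor genes (olfactory, vomeronasal, trace amine; 1528 in all) served as negative controls for normexp correction (limma 3.58.1, R 4.3.3, offset 16), followed by log2. A probe was above background past the 95th percentile of these control probes; this was required on 3 or more of a tissue's 6 arrays, and the brightest probe stood for a gene, which left 11487 genes in GWAT and 9008 in liver.

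Within each tissue, genotypes were compared by limma (lmFit, eBayes with an intensity trend, two-sided, Benjamini-Hochberg over all genes, adjusted p under 0.05), and the tissue difference by the interaction term over all 12 arrays. The number of arrays limits the precision. Every tested member is named in GWAT, the 4 with the lowest p in liver, and at most 4 called genes of any other list. Alternatives covered background, filter, probe choice, scaling, the limma fit, array weights, a replicate block, single arrays left out and the sign of the GWAT labels. Array probes can also read near-identical copies of a gene, which was not tested.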

Additional observations from a re-analysis of the deposited data

Results flagged for a closer look

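For 11 subunits the genotype difference by the labels was larger in GWAT than in liver by the interaction term of limma. The GWAT minus liver differences on the log2 scale in complex IV were 0.821 for Cox7a2 (limma adjusted p = 0.0314), 0.545 for Cox4i1 (0.0205), 0.533 for Cox6b1 (0.0298) and 0.51 for Cox5b (0.0193). In the ATP synthase they were 0.891 for Atp5e (limma adjusted p = 0.0345), 0.438 for Atp5c1 (0.0326), 0.397 for Atp5b (0.0164), 0.395 for Atp5o (0.043) and 0.363 for Atp5g3 (0.0361). Sdhb of complex II stood at 0.61 (limma adjusted p = 0.0386) and Uqcr11 of complex III at 0.458 (0.0267). All 11 rest on the GWAT labels that Cav1 contradicts, and no member's call here was kept with every one of the 12 arrays left out in turn.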

How the results depend on the processing

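The 24 calls in GWAT became 13 without an intensity trend and 10 with arrays centred on cytosolic ribosomal protein genes, and ranged from 12 to 23 with 1 array left out. The 0 calls in liver became 3 with array weights, where calls among all genes became 140 higher and 104 lower of 9008. The 11 calls for the tissue difference became 2 without a filter, 2 without an intensity trend, 21 with array weights (where 13.4% of all genes were higher, against 4.42%), 7 with ribosomal centring and 0 to 13 with 1 array left out. The complex II median in GWAT was 0.33 without background correction, 0.31 at an offset of 50 and 0.38 without a filter. It was 0.71 with array weights and 0.41 to 0.67 with 1 array left out. Over the 3 genes of the main fit this median is the value of Sdhd, read by 1 dim probe. Sdhd's own difference ran from 0.41 to 0.67 with 1 array left out, and why it moved was not tested. The complex V median in GWAT was 0.26 when all probes of a gene were averaged. In liver the complex IV median was -0.27 with ribosomal centring and -0.204 to -0.0905 with 1 array left out, and that of complex III was -0.15 to 0.10 with 1 array left out. Among all GWAT genes the 1474 higher and 1415 lower became 816 and 831 with ribosomal centring, 852 and 813 without wild-type array 2, 748 and 862 without knockout array 2, and 919 and 945 without knockout array 3, as labelled.

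With the replicate number as a block, 23 members were called in GWAT, 0 in liver and 6 for the tissue difference. Deviations from the group means were correlated between knockout and wild-type arrays. Same-numbered arrays gave 0.02, -0.01 and 0.15 in GWAT and 0.02, -0.02 and 0.01 in liver. Differently numbered ones gave -0.18 to 0.17 in GWAT and -0.04 to 0.04 in liver, so the numbers are not taken to pair the samples.

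Turning the sign of the GWAT comparison left 7 calls, all lower, and positive differences for 5 of the 33 subunits. The 15 differences that were called by either reading and changed sign were Sdhb -1.10, Uqcrc2 -0.44, Uqcr11 -0.014, Cyc1 -0.59, Cox4i1 -0.15, Cox5b -0.039, Cox7a2 -0.44, Cox7a2l -0.71, Atp5a1 -0.99, Atp5b -0.28, Atp5c1 -0.54, Atp5e -0.10, Atp5pb -0.99, Atp5g3 -0.26 and Atp5o -0.22. Uncalled differences changed sign in 26 member and setting pairs for the tissue difference, 5 for GWAT and 30 for liver.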

Other observations

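Mitochondrial DNA encodes further subunits of these complexes, and probes under COX2 and ATP6 were tested in GWAT. COX2, a catalytic core subunit of complex IV, read 1379.7, 1855 and 2420.2 on arrays labelled knockout and 1485, 1284 and 1278 on arrays labelled wild type, with overlap (log2 0.46, SE 0.17, limma adjusted p = 0.0691). ATP6, a membrane subunit of the ATP synthase, overlapped at 1685, 1953.5 and 2641 on arrays labelled knockout and 2287, 1743 and 1631 on arrays labelled wild type (log2 0.14, SE 0.16, limma adjusted p = 0.568). On both the third array labelled knockout was the highest, as it was for Cox6a2 and for the summed skeletal muscle markers, though not for Actn3 of that list.

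Duct epithelium markers were higher for 2 of 7 tested genes in GWAT, where 12.8% of all genes were called higher. Fxyd4 read 683, 599.9 and 256 on arrays labelled knockout and 72.6, 58.9 and 53.2 on arrays labelled wild type. It was above background on 3 arrays labelled knockout and 1 labelled wild type, and passed the filter through the arrays labelled knockout. Aqp2 read 515, 294 and 185 on arrays labelled knockout and 76.7, 91.3 and 114 on arrays labelled wild type. The third array labelled knockout was the lowest of its group for both, as for the smooth muscle markers. The other 5 tested genes were not called, with log2 differences of -0.22 for Krt8, 0.22 for Krt18, -0.03 for Cdh1, -0.09 for Cldn3 and 0.01 for Cldn7, and the median of the list was 0.01. The first array labelled wild type stood apart from its group: Cldn3 read 177, 212 and 181 on arrays labelled knockout and 641, 116 and 128 on arrays labelled wild type, and Krt8 read 700.5, 656 and 599 on arrays labelled knockout and 1086, 637 and 613 on arrays labelled wild type.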
